A study of Homo sapiens with 4 samples.

Results

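The transcription factor P-TEFb and the super elongation complex (SEC) that carries it were examined through 10 genes: CDK9, CCNT1, CCNT2, HEXIM1, LARP7, AFF1, AFF4, ELL2, MLLT1 and MLLT3. They were picked by gene symbol from the 28063 genes in the count tables, and all 10 were among the 14141 genes that passed a filter on low counts. Poly(A) RNA was sequenced from KELLY, an established human line of neuroblastoma in which MYCN is amplified. All cells had been transduced with a lentiviral vector for FLAG-tagged IWS1, a factor that acts in transcription elongation, and selected with puromycin. The WT group (2 libraries) expressed wild-type IWS1-FLAG, and the M3 group (2 libraries) a form in which the motif TIM3 is disrupted. TIMs are short disordered stretches that bind TNDs, folded domains of the kind first seen at the N-terminus of TFIIS, in other elongation factors. The labels name no untransduced cells in these 4 libraries, do not say what became of the endogenous IWS1, and do not say whether the libraries came from separate cultures, so p-values rest on the scatter among these 4 libraries alone, and that scatter may be technical.

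P-TEFb is a kinase made of CDK9 and a cyclin T. It phosphorylates RNA polymerase II, the pausing factor NELF and the elongation factor DSIF, which lets paused polymerase move into the gene body. Much of it is held inactive in the 7SK particle, where HEXIM1 blocks the kinase and LARP7 protects the 7SK RNA. Active P-TEFb can be delivered to genes within the SEC, which AFF1 or AFF4 builds as a scaffold together with an ELL protein and a YEATS-domain reader, MLLT1 (ENL) or MLLT3 (AF9). The N-terminal domain of the Mediator subunit MED26 is itself a TND and is known to bind the EAF proteins that accompany the SEC.

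Gene counts ran from 12289685 to 20962372 per library. Counting noise alone (chi-square over its degrees of freedom near unity) did not account for the gap between libraries of the same group: this measure was 24.1 between WT libraries, 4.61 between M3 libraries and 25.5 to 76.4 across groups, so all 4 were kept as separate samples. The share of counted reads that fell in no annotated gene was 23.3% and 23.2% with WT and 27.5% and 25.6% with M3. The summed level of 10 adrenergic neuroblastoma markers ran from 6848 to 7319 CPM (counts per 1000000 gene counts, TMM-normalised) in WT and from 5665 to 5797 in M3, each marker averaging at least 111 CPM. Of the 10, 3 (PHOX2A, TH and DBH) were lower in M3 by the test, beside 6.63% of all tested genes. Their transcripts have 1699, 1910 and 3775 nt with 66.5%, 66.1% and 60.7% GC. The trends with length and GC content given further on were not removed for these calls. The sum for 6 fibroblast markers, of which PDGFRB made up most, was 94.9 CPM in both WT libraries and 124 to 125 in M3, with none called. Sums were at most 4.16 CPM in any library for 4 Schwann, 2.06 for 4 endothelial, 3.60 for 4 haematopoietic and 6.81 for 4 epithelial markers, none of these passed, and S100B and CD3E had no read. Their part in the results was not tested.

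The 3 genes whose RNA was higher in M3 by the test, AFF1, AFF4 and CCNT2, lie on 3 chromosomes, and the DNA just before their starts is shown to let their control regions be compared, with that of HEXIM1 for contrast. Each sequence is the 250 bases before the gene's first base on its own strand, from the RefSeq promoter table (GRCh38.p14). Capitals mark matches on either strand to GGGCGG (a GC box), CACGTG (the E-box bound by MYC and MYCN), CCAAT, or TATAAA. The windows are AFF1 at chr4:86934761-86935010 (plus strand), AFF4 at chr5:132963635-132963884 (minus), CCNT2 at chr2:134918572-134918821 (plus) and HEXIM1 at chr17:45148225-45148474 (plus).
AFF1: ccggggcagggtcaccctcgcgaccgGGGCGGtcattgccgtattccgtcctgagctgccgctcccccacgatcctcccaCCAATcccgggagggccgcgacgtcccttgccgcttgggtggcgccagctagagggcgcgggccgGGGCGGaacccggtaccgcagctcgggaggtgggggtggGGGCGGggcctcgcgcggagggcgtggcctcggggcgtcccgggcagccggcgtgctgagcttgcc
AFF4: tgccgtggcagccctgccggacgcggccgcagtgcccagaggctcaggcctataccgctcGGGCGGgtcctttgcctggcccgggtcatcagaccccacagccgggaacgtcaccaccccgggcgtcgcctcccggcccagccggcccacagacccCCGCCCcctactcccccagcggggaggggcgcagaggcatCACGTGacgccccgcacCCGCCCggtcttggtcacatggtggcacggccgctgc
CCNT2: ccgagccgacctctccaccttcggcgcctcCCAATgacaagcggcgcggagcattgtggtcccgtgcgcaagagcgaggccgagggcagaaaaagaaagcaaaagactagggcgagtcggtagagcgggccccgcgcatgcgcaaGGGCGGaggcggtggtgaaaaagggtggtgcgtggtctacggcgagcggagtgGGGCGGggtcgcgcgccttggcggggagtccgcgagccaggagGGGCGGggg
HEXIM1: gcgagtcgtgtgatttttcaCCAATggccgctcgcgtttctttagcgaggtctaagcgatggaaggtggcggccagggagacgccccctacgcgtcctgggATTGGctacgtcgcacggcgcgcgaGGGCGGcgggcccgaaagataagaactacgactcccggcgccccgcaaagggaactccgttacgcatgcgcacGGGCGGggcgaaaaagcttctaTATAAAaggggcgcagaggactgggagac

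All 3 were rich in G and C (76.8%, 75.2% and 69.6%, against a median of 58.0% over 35116 windows of the table) and each held 3 GC boxes. Genes that were not called were as rich, with 82.0% for CDK9, 77.2% for MLLT1 and 72.0% for MLLT3, which also held 3 GC boxes. RefSeq windows were matched for 9 of the 10 genes, ELL2 being the other. A GC box was found in all 9, beside 42.6% of all windows, and CCAAT in 7 of 9, beside 32.0%. The E-box was found before AFF4, CCNT1 and MLLT1 (3 of 9, beside 6.34% of all windows), of which only AFF4 passed the test for M3 against WT. TATAAA was found only before HEXIM1, at position -29 with the gene's first base as 0, beside 10.7% of all windows. The windows behind these shares were not limited to tested genes. All 9 windows here were richer in G and C (59.2% to 82.0%) than the median window, and the shares were not matched for this. These are matches of letters and not bound sites.

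The M3 libraries were compared with the WT libraries gene by gene. AFF1, AFF4 and CCNT2 were 1.90-, 1.98- and 1.69-fold higher in M3, and none of the 10 was lower by the test. These are edgeR quasi-likelihood calls at an adjusted p below 0.05 over all tested genes. Over all 14141 genes, 15.8% passed (9.16% higher and 6.63% lower), and 5 of the 10 had an unadjusted p below 0.05. The median log2 fold change of the 10 was 0.49, beside -0.0065 over all tested genes, and 0.16 once trends with transcript length and GC content, described further on, were removed. The 10 were chosen with earlier results of these data known, so these shares and medians are a description and not a test of the set. In 9 of the 10 the WT and M3 libraries did not overlap, as in 68.2% of all tested genes. IWS1 itself was at 370 and 394 CPM with WT and 596 and 599 with M3 (log2 fold change 0.65 ± 0.12, SE; edgeR adjusted p = 0.0225), and 0.69 after removal of the length and GC trends (0.00863). Without M3 library 1 or M3 library 2 it stayed at 0.65 and 0.64, without a call (edgeR adjusted p = 0.215 and 0.138). Its count cannot tell the vector's form from the endogenous gene where they share sequence.

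**Figure D1:**
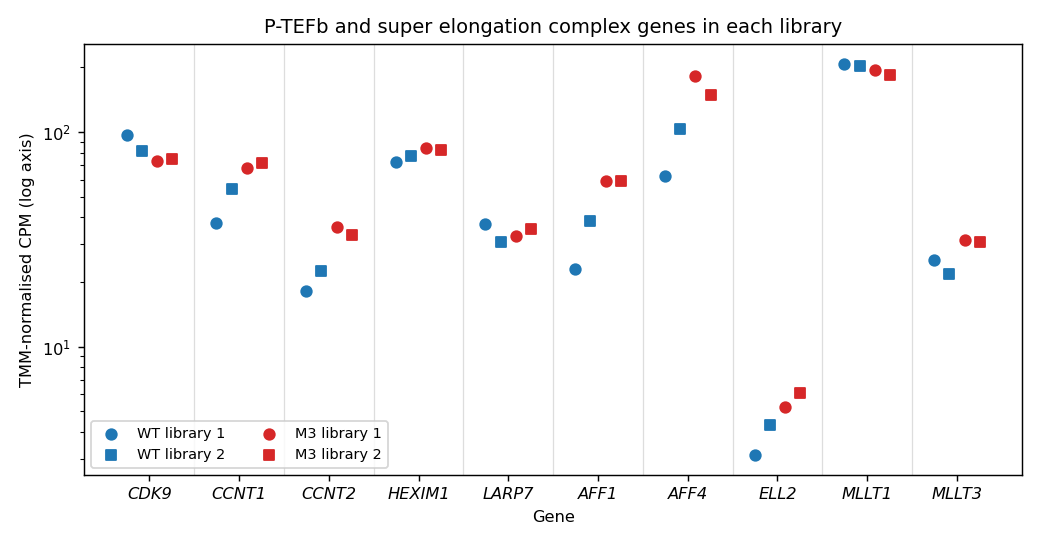
TMM-normalised CPM (log axis) of the 10 genes in each of the 4 libraries; blue is WT, red is M3, circles are libraries 1 and squares libraries 2. AFF1, AFF4, CCNT1, CCNT2, HEXIM1 and ELL2 climb from WT library 1 to WT library 2 to the M3 libraries, HEXIM1 by a small margin, and CDK9 and MLLT1 lie slightly lower in M3.

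The catalytic subunit CDK9 (chromosome 9, 127786034 to 127790792, GRCh38) was at 96.7 CPM in WT library 1, 81.0 in WT library 2, and 73.4 and 74.7 with M3. Both M3 libraries lay below both WT libraries, but the difference, -0.26 ± 0.14 in log2, did not pass (edgeR adjusted p = 0.197). With the length and GC trends removed it was at 0.0045. CCNT1, the cyclin T1 that HIV Tat recruits (chromosome 12, 48688458 to 48716707), was at 37.7 and 54.5 CPM with WT and 67.8 and 71.9 with M3. Its log2 fold change of 0.59 ± 0.18 fell just short of the threshold (edgeR adjusted p = 0.0538), while DESeq2 (0.0219) and limma-voom (0.0495) called it.

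CCNT2, which encodes cyclin T2, the other partner of CDK9 (chromosome 2, 134918822 to 134959342), was at 18.1 and 22.6 CPM with WT and 36.1 and 33.1 with M3. The groups stood well apart, and the log2 fold change was 0.76 ± 0.16 (edgeR adjusted p = 0.0262). Without M3 library 1 it was 0.69 and the call was lost (edgeR adjusted p = 0.137). Per transcript length, CCNT1 reads exceeded CCNT2 reads in all 4 libraries, by 2.07 and 2.39 times in WT and 1.86 and 2.15 times in M3. The WT and M3 ratios overlapped, so the balance of the cyclins did not separate the groups. The sum of both cyclins per length, relative to CDK9, was 0.205 and 0.337 in WT and 0.501 and 0.498 in M3, a ratio chosen after the values were seen. It was higher in both M3 libraries, and WT library 2 lay between WT library 1 and M3. The trend with transcript length and GC content given further on runs the same way, and without it the log2 fold changes were 0.16 for each cyclin and 0.0045 for CDK9.

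Among the inhibitors, HEXIM1 (chromosome 17, 45148475 to 45152099), a gene with a single exon, was at 72.7 and 77.1 CPM with WT and 84.2 and 82.7 with M3. The M3 libraries were higher by a small margin (0.16 ± 0.12; edgeR adjusted p = 0.387), and 14.4% of its exonic bases lie in an antisense gene, so its count is uncertain. LARP7 (chromosome 4, 112637143 to 112657586) was at 37.4 and 30.7 CPM with WT and 32.8 and 35.2 with M3. It was the 1 gene of the 10 whose groups overlapped, with a log2 fold change of 0.0029 ± 0.15 (edgeR adjusted p = 0.991), and its sign changed with the scaling. The HEXIM1 paralog HEXIM2, which can also block the kinase, had only 42 and 50 reads in WT and 24 and 22 in M3, and 50.3% of its exonic bases lie in an antisense gene. Per length, the HEXIM1 to HEXIM2 ratio was 9.18 and 13.8 in WT and 19.1 and 22.5 in M3. The groups did not overlap, but the 95% counting interval of WT library 2 (10.4 to 18.6) reached above the lower bound for M3 library 1 (12.8).

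The scaffolds showed the largest differences. AFF1 (chromosome 4, 86935011 to 87141039), first known as a fusion partner of KMT2A in leukaemia, was at 23.0 and 38.6 CPM with WT and 59.0 and 59.3 with M3. Both M3 libraries were nearly equal and lay above WT, whose libraries differed from each other (log2 fold change 0.93 ± 0.22; edgeR adjusted p = 0.0315). Without WT library 1 the log2 fold change was 0.61, and without WT library 2 it was 1.36.

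AFF4, a scaffold of the SEC that serves HIV Tat (chromosome 5, 132875395 to 132963634), was at 62.5 and 103 CPM with WT and 182 and 148 with M3. It had the largest log2 fold change of the 10, 0.99 ± 0.22 (edgeR adjusted p = 0.0290), or 0.67 without WT library 1 and 1.39 without WT library 2. Per length, AFF4 reads exceeded AFF1 reads by 2.67 and 2.63 times in WT and by 3.03 and 2.45 times in M3. The WT ratios lay between the M3 ratios, so the balance of the scaffolds did not separate the groups.

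ELL2, an ELL-family elongation factor (chromosome 5, 95885098 to 95961851), was the scarcest of the 10. It had 39 and 91 reads in WT and 67 and 86 in M3, or 3.12 and 4.32 CPM against 5.22 and 6.10. The groups did not overlap, and the log2 fold change of 0.59 ± 0.27 did not pass (edgeR adjusted p = 0.153). Its paralog ELL was at 35.3 and 34.4 CPM with WT and 31.2 and 31.4 with M3 (-0.16 ± 0.13; edgeR adjusted p = 0.425). The ELL to ELL2 ratio per length was 16.8 and 11.8 in WT and 8.86 and 7.64 in M3. It was lower in both M3 libraries, with 95% counting intervals of 9.50 to 14.9 in WT library 2 and 6.83 to 11.7 in M3 library 1 that overlapped.

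Of the YEATS-domain readers, which bind acylated histone lysines, MLLT1 (chromosome 19, 6210381 to 6279975) had the highest level of the 10, at 208 and 202 CPM with WT and 195 and 185 with M3. The M3 libraries were slightly lower (-0.11 ± 0.11; edgeR adjusted p = 0.506), a sign that turned with total-count scaling (0.0065). MLLT3 (chromosome 9, 20341669 to 20622499) was at 25.3 and 21.9 CPM with WT and 31.2 and 30.6 with M3, higher in both M3 libraries without passing (0.39 ± 0.15; edgeR adjusted p = 0.0912). The MLLT1 to MLLT3 ratio per length was 12.3 and 13.9 in WT and 9.38 and 9.07 in M3. The upper bounds of the M3 ratios' 95% counting intervals (10.5 and 10.1) lay below the lower bounds of the WT intervals (10.98 and 12.6). The trend with transcript length and GC content given further on runs the same way. Without it the log2 fold changes were 0.04 for MLLT1 and -0.15 for MLLT3, the reverse of the ratio's direction. The ratios are given as a description, without a test (with 2 libraries against 2 an exact permutation test cannot go below p = 0.333), and the intervals cover counting error only.

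**Figure D2:**
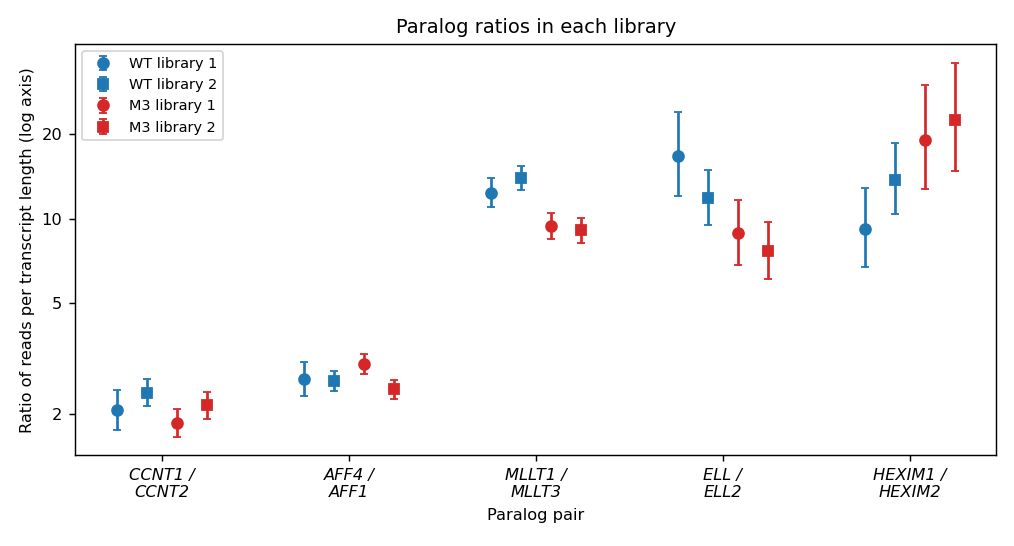
Ratio of reads per length of the longest transcript between paralogs (log axis), 1 point per library with its 95% exact binomial interval for counting error. The AFF4 to AFF1 and CCNT1 to CCNT2 ratios overlap between groups, MLLT1 to MLLT3 and ELL to ELL2 are lower in M3, and HEXIM1 to HEXIM2 is higher.

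Between genes, levels were compared as CPM per kb of the longest annotated transcript. In WT the order was MLLT1 (45.5 ± 0.88, SD, n = 2), CDK9 (36.1 ± 4.49), HEXIM1 (20.8 ± 0.86), LARP7 (14.6 ± 2.04), AFF4 (8.67 ± 3.01), CCNT1 (6.61 ± 1.70), MLLT3 (3.48 ± 0.36), AFF1 (3.28 ± 1.17), CCNT2 (2.94 ± 0.46) and ELL2 (0.62 ± 0.14). The ranges of AFF4 and CCNT1 overlapped between the WT libraries, though AFF4 was the higher within each. MLLT3, AFF1 and CCNT2 overlapped too, and their order differed between the WT libraries. In M3, AFF4 (17.3 ± 2.51) stood above LARP7 (14.6 ± 0.73), and AFF1 (6.30 ± 0.03) and CCNT2 (5.003 ± 0.30) above MLLT3 (4.56 ± 0.07). The kinase and its inhibitor thus exceeded each cyclin and each scaffold per length in both groups. LARP7 has a longer set of annotated exons (4083 nt) than its longest transcript (2332 nt). Per kb of exons its level of 8.34 in WT overlapped that of AFF4 (7.33). In M3 LARP7 (8.33) lay below CCNT1 (9.46) per kb of exons, the reverse of their order per transcript length, and CCNT2 and MLLT3 were not separate.

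The genes with the largest fold changes were also those with the longest transcripts of the 10. AFF4, AFF1, CCNT1, CCNT2, MLLT3 and ELL2 have transcripts of 9552, 9390, 6973, 6917, 6772 and 6046 nt with 37.0% to 45.2% GC. CDK9, LARP7, HEXIM1 and MLLT1 have 2463, 2332, 3600 and 4507 nt with 55.1%, 38.1%, 48.2% and 63.4% GC. LARP7, at a log2 fold change of 0.0029, has a GC content as low as the long ones. The joint trend on length and GC content described below was 0.17 for it. Over all tested genes with a transcript, the median log2 fold change climbed from -0.38 in the 1319 genes of up to 1500 nt to 0.31 in the 1444 genes of 6000 to 8000 nt and 0.50 in the 1215 longer ones. In these last sets 20.9% and 36.0% of genes were called higher, beside 1.36% in the shortest.

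**Figure D3:**
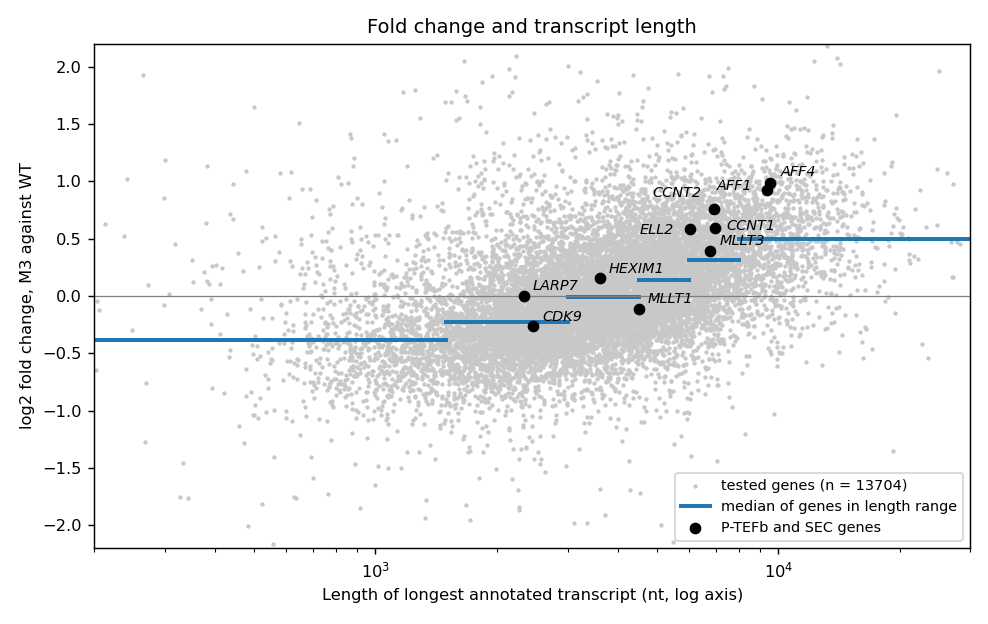
Log2 fold change of M3 against WT for tested genes by length of the longest transcript (log axis), with blue bars for the median in each of 6 length ranges and black points for the 10 genes; 122 of 13704 genes lie outside the axes. The medians climb with length. AFF1, AFF4, CCNT1, CCNT2, ELL2, LARP7 and HEXIM1 lie above the bar at their length, MLLT1 lies below its bar, and CDK9 and MLLT3 lie near theirs.

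A smooth trend of each library on transcript length and GC content was therefore removed and the fit repeated on 13704 genes. The part of the log2 fold change that this trend held was 0.43 for AFF1, 0.55 for AFF4, 0.45 for CCNT1, 0.61 for CCNT2, 0.54 for MLLT3, 0.43 for ELL2, -0.26 for CDK9 and -0.15 for MLLT1. It was 0.17 for LARP7 and -0.0054 for HEXIM1. What was left was 0.53 ± 0.14 for AFF1 and 0.47 ± 0.12 for AFF4, each just short of a call (edgeR adjusted p = 0.0506 and 0.0532). It was 0.16 ± 0.12 for CCNT2 (edgeR adjusted p = 0.444) and 0.16 ± 0.12 for CCNT1 (0.430), and -0.15 ± 0.16 for MLLT3 (0.606). HEXIM1 had the same value with and without the trend, 0.16 ± 0.09 (edgeR adjusted p = 0.305), LARP7 was at -0.16 ± 0.12 (0.459), and CDK9, MLLT1 and ELL2 were at 0.0045, 0.04 and 0.18. The trend also differed within pairs of paralogs, in the direction of their ratios: -0.15 for MLLT1 and 0.54 for MLLT3, -0.17 for ELL and 0.43 for ELL2, and -0.0054 for HEXIM1 and -0.43 for HEXIM2. With it removed, MLLT1 (0.04) lay above MLLT3 (-0.15), against the direction of their ratio. The direction was kept for ELL (0.011 ± 0.11) and ELL2 (0.18 ± 0.26) and for HEXIM1 (0.16 ± 0.09) and HEXIM2 (-0.29 ± 0.36). No gene of these pairs passed (edgeR adjusted p = 0.965, 0.704, 0.305 and 0.666), and the SEs of ELL2 and HEXIM2 exceeded their values. None of the 10 passed in this fit (2 had an unadjusted p below 0.05), beside 5.36% of all genes. A change in these genes and a trend that long transcripts share between these libraries cannot be told apart with the groups at hand.

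**Figure D4:**
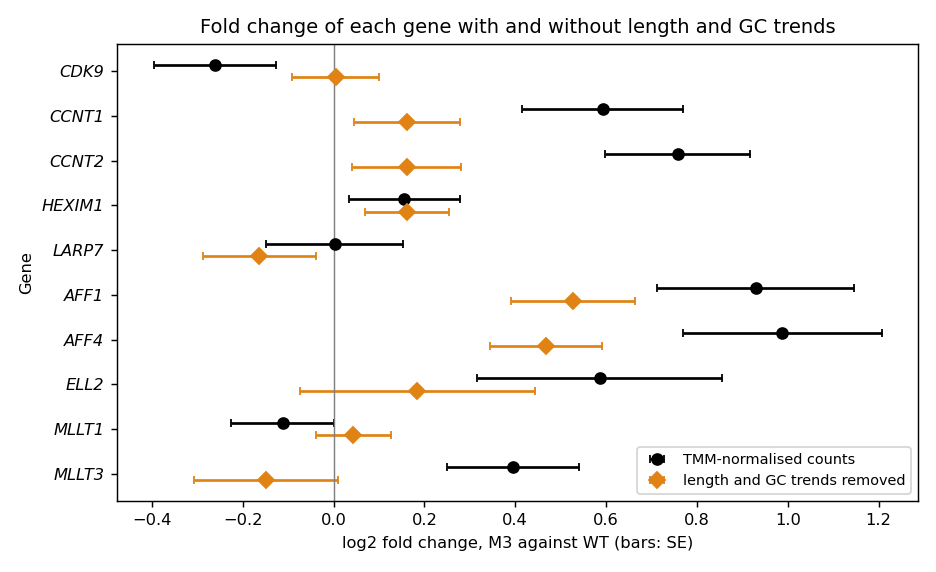
Log2 fold change of M3 against WT for each of the 10 genes, with bars for the SE, from TMM-normalised counts (black) and with the trends on transcript length and GC content removed (orange). With the trends removed AFF1 and AFF4 are at 0.53 and 0.47, CCNT1 and CCNT2 at 0.16, and MLLT3, CDK9, LARP7 and MLLT1 change sign.

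WT library 1 stood apart from WT library 2 in the same direction as WT stood from M3. In 6 of the 10 genes (AFF1, AFF4, CCNT1, CCNT2, HEXIM1 and ELL2) WT library 1 was lowest, WT library 2 next and both M3 libraries highest, as in 27.1% of all tested genes. CDK9 and MLLT1 ran in the reverse order, with WT library 1 highest, WT library 2 next and both M3 libraries lowest. The share of all genes in that reverse order was not counted. Without WT library 1, 5 of the 10 passed, all higher in M3 (24.1% of all genes passed), and CCNT2 was at 0.61, CCNT1 at 0.35 and MLLT3 at 0.49. Without WT library 2, 6 passed (46.2% of all genes): AFF1, AFF4, CCNT1, CCNT2 and ELL2 higher, at 0.85 for ELL2, and CDK9 lower, at -0.39. Both of these fits estimate the spread from the M3 libraries only and assume that the lone WT library varies like them. Without M3 library 1, AFF1 (0.93) and AFF4 (0.83) passed (2.47% of all genes), and without M3 library 2, AFF1 (0.93), AFF4 (1.13) and CCNT2 (0.82) did (7.33% of all genes). These fits estimate the spread from the WT libraries only. AFF1 and AFF4 passed in all 4 of these fits, each with 1 sample in an arm.

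Other genes of the pathway were read from 5 lists. Beside the counts that follow stands the 15.8% of all tested genes that passed. Of 11 partners of 7SK and P-TEFb, 1 was higher and 1 lower with edgeR, with a median log2 fold change of -0.22. DESeq2 called 1 higher and 4 lower, as did edgeR without a count filter, and limma-voom called 1 higher and 0 lower. DDX21, a helicase that helps release P-TEFb from 7SK, was at 184 and 250 CPM with WT and 343 and 344 with M3 (0.66 ± 0.15; edgeR adjusted p = 0.0315), and 0.39 with the trends removed, where the call was lost (0.0551). Without M3 library 1 or M3 library 2 it stayed at 0.66, also without a call (edgeR adjusted p = 0.145 and 0.0896). RN7SK, the 7SK RNA itself, had 73 and 310 reads in WT and 32 and 52 in M3 (-1.76 ± 0.42; edgeR adjusted p = 0.0328). Most of its reads came from WT library 2, without which the log2 fold change was -0.92, and it was not called by limma-voom (0.0527), with total-count scaling (0.0652) or with the trends removed (-1.44; edgeR adjusted p = 0.144), though it was with the trends removed and the replicate block (0.0143). Since 7SK RNA is not polyadenylated and has near-identical copies in the genome, these counts are uncertain as a measure of its level. TRIM28 (-0.42 ± 0.14; edgeR adjusted p = 0.0752) and the phosphatase PPM1G (-0.43 ± 0.14; 0.0644) did not pass with edgeR, and DESeq2 called both lower (0.0140 and 0.0238). With the trends removed TRIM28 was at -0.12 and PPM1G at -0.41. SRSF2, a splicing factor found with the 7SK particle, was the 1 gene of the list to pass once the length and GC trends were removed (-0.38; edgeR adjusted p = 0.0343), against -0.39 and 0.0541 before, and is named after its value was seen. In its case 36.7% of its exonic bases lie in other genes.

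A list of 11 genes held those for other SEC, EAF or DOT1L-complex proteins, along with KMT2A and MEN1, which encode none of these. Among its 10 tested genes 1 was higher and none lower, with a median of 0.14. It was KMT2A, the histone methyltransferase fused to AFF1 or MLLT proteins in leukaemia, at 39.6 and 66.8 CPM with WT and 102 and 85.3 with M3 (0.81 ± 0.23; edgeR adjusted p = 0.0449). It has a transcript of 16628 nt, 18.9% of its exonic bases lie in other genes, and it lost the call with the trends removed (0.32; edgeR adjusted p = 0.131) and without M3 library 1 (0.142), and also with total-count (0.0682) or upper-quartile (0.0528) scaling. DOT1L (0.06 ± 0.13; edgeR adjusted p = 0.779), with 11.5% of exonic bases in other genes, and MEN1 (-0.24 ± 0.14; 0.232) did not pass. AFF2 had at most 2 reads in any library and was not tested.

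Of 4 genes listed for the little elongation complex, which shares ELL proteins with the SEC and serves small nuclear RNA genes, 1 was higher. Their median was 0.39, and 0.05 after removal of the length and GC trends. It was the scaffold ICE1, at 49.7 and 72.0 CPM with WT and 99.9 and 92.4 with M3 (0.65 ± 0.18; edgeR adjusted p = 0.0423). With the trends removed it was at 0.27 without a call (edgeR adjusted p = 0.152), and the call was also lost without either M3 library (0.60 and 0.71; adjusted p = 0.210 and 0.0627) and with total-count scaling (0.0616). ICE2 (0.33 ± 0.14; edgeR adjusted p = 0.127) and USPL1 (0.22 ± 0.17; 0.381) did not pass.

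Of 13 genes for other transcription kinases and cyclins, with their partner MNAT1 among them, 1 was higher and none lower. Their median was -0.05, a sign that turned with total-count scaling (0.0688), with a minimum mean of 50 reads (0.0516) and without WT library 1 (0.0155), WT library 2 (0.0816) or M3 library 1 (0.13). The called gene was CDK12, which phosphorylates RNA polymerase II in gene bodies, at 64.5 and 90.2 CPM with WT and 132 and 117 with M3 (0.68 ± 0.17; edgeR adjusted p = 0.0351), again a long transcript (8336 nt). With the trends removed it was at 0.29 (edgeR adjusted p = 0.108), without M3 library 1 at 0.60 (0.204), and with total-count scaling at 0.79 (0.0529), each without a call. CCNL2 (-0.34 ± 0.15; edgeR adjusted p = 0.147) and CDK11B (-0.24 ± 0.13; 0.201) did not pass.

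Of 23 primary response and short-lived RNAs whose transcription is known to need P-TEFb, 14 were tested and none passed with edgeR. Their median was -0.11, a sign that turned with total-count scaling (0.0126) and after removal of the length and GC trends (0.11). An unadjusted p below 0.05 was found for 3, DESeq2 called 1 of 22, and limma-voom called 0 of 14. MYCN was at 2386 and 2385 CPM with WT and 2247 and 2258 with M3 (-0.08 ± 0.16; edgeR adjusted p = 0.736). MCL1, a survival factor with a short-lived RNA, was at 232 and 251 CPM with WT and 321 and 311 with M3, with groups apart and a log2 fold change of 0.38 ± 0.12 (edgeR adjusted p = 0.0559); DESeq2 called it (0.0319). The other 9, among them FOS, MYC and KLF4, had at most 16 reads in any library.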

How the data were processed

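Poly(A) RNA of 4 libraries (2 WT, 2 M3) was compared. The authors deposited, for each library, a table of raw counts by gene symbol, made with HISAT2 2.1.0 and HTSeq on hg38, per the submitters' processing notes, which also name DESeq2; neither annotation nor strand setting is given in the sources used here, so sense and antisense reads cannot be told apart. Reads in no gene (23.2% to 27.5%) or several genes (3.16% to 3.50%) stayed out of library sizes and tests.

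Counts were fitted with edgeR 4.0.16 (R 4.3.3): filterByExpr, TMM, robust quasi-likelihood F test, no covariates, Benjamini-Hochberg adjustment over 14141 genes, threshold 0.05. The SE is the log2 fold change over the root of F. The fit was tested on simulated data. Length and GC trends were fitted in each library as splines (5 degrees of freedom) and used as offsets. Transcripts came from GENCODE 29 (25909 of 28063 symbols matched), and positions and promoters from RefSeq GRCh38.p14.

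Named are the 10 genes, IWS1, RN7SK, and per list its called genes (the 4 of largest change where over 5) and up to 2 uncalled of highest mean CPM, with ELL and HEXIM2 as paralogs. Members and lists were chosen with earlier results of these data known. Alternatives were other scaling, count filters, DESeq2 1.42.0, limma-voom (limma 3.58.1), a replicate block, single libraries left out, an adjusted p of 0.01 and the length and GC correction. Crossed pairing and exon lengths were added after seeing the data.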

Additional observations from a re-analysis of the deposited data

Results flagged for a closer look

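Reads assigned to no annotated gene, which no comparison used, made up 27.53% and 25.57% of counted reads in M3 libraries 1 and 2, above the 23.3% and 23.2% of WT libraries 1 and 2. This share moved with the groups, and its part in the differences of AFF1, AFF4 and CCNT2 was not tested.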

How the results depend on the processing

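AFF1, AFF4 and CCNT2 kept their direction under every alternative run. The number of the 10 genes called (3) was 0 with the length and GC trends removed, 0 at an adjusted p below 0.01 (edgeR; DESeq2 called 3 and limma-voom 0 there, and 5 had an unadjusted edgeR p below 0.05), 2 to 6 with a library left out, and 2 to 4 under the other alternatives from the plan, AFF1 losing its call with total-count scaling (edgeR adjusted p = 0.0509). Genes called over the whole table numbered 2232, and 1120 with total-count scaling (856 higher, 264 lower, against 1295 and 937), 3945 without a count filter, 734 with the length and GC trends removed, 359 to 6735 with a library left out, and 0 at an adjusted p below 0.01, where DESeq2 called 1258 of the same genes and limma-voom 0, with 5078 at an unadjusted edgeR p below 0.05. Replicate numbers pair nothing by the labels, and same-numbered libraries deviated with a correlation of -0.14; with the replicate block 4 of the 10 and 2315 genes passed, and with the block and the trends removed 2 (AFF1 and AFF4) and 679. Crossed pairing gave 5 of the 10 and 5314 genes.

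Signs turned only for genes that were not called. With the length and GC trends removed, alone and with the block, the log2 fold changes were 0.0045 and 0.0052 for CDK9, 0.0437 and 0.0431 for MLLT1, -0.15 and -0.14 for MLLT3, -0.16 and -0.16 for LARP7, 0.0031 and 0.0036 for MEN1, -0.235 and -0.235 for ICE2, 0.19 and 0.19 for MYCN, and 0.0110 and 0.0109 for ELL. With total-count scaling MLLT1 was at 0.0065 and MYCN at 0.0346, under a scaling that moved the median of all genes by 0.12. LARP7 was at -0.0111 with upper-quartile scaling, -0.0090 without a count filter, -0.0013 with DESeq2, and between -0.14 (without WT library 2) and 0.14 (without WT library 1) with a library left out. DOT1L ran from -0.0700 (without WT library 1) to 0.19 (without WT library 2), with -0.0174 without M3 library 1. Among the 10 genes ELL2 had the fewest reads, 39 to 91, and the largest SE (0.27).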
